A study of Danio rerio with 4 samples.

Results

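Immediate early genes are the first genes that a neuron transcribes after it fires, and 10 of them were described here in the zebrafish (Danio rerio) brain: egr1, egr2a, egr3, npas4a, fosab, fosb, junba, ier2a, ier2b and nr4a1. They were chosen by symbol, as transcription factors and nuclear proteins that neuronal activity induces, with earlier results of these data known. Each had 1 row in a table of 32520 genes, and all 10 were among the 16522 genes whose mean over the libraries reached 1 CPM, a count scaled for sequencing depth. Wild-type brain was sequenced as 4 libraries, 1 for each group: a control in 0.1% of the solvent dimethyl sulfoxide, and butylparaben, an ester used as a preservative, at 0.01, 0.1 and 1.0 mg/L. The title speaks of adult fish, long exposure, light sensitivity and memory. The sources used here do not say whether animals were pooled, of which sex and exact age they were, or at what hour they were sampled, and only the control's label names the solvent. Below, a series of 4 values runs from control through 0.01 and 0.1 to 1.0 mg/L, and a series of 3 runs over the doses in rising order.

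Calcium entry and receptor signalling activate kinases that phosphorylate transcription factors already present in the neuron, such as CREB and SRF with its partners, and these switch on immediate early genes within minutes and without new protein. The products then drive slower genes of synapses and plasticity, and some feed back to end the response. The messages are short-lived, and in rodents Egr1, Fos and Npas4 are widely used to map recently active neurons and are linked to memory formation.

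With 1 library for each group there is no replicate error and no test between conditions. Intervals are exact 95% intervals of counting error alone (Poisson for a level, and Clopper-Pearson, given the summed counts, for a ratio). For a change between libraries in the count per egr1 count, they are exact conditional intervals of an odds ratio. Library sizes lay between 9750590 and 11099317 counts, of which 26.3% to 32.3% came from mitochondrially encoded genes. Of 36 listed pan-neuronal genes 31 passed the filter, and snap25a, a synaptic fusion protein, had 3605 to 4351 CPM. The control library stands apart by egg coat and oocyte genes, with a sum of 649 CPM against 16.3, 17.5 and 14.8 CPM. Of these, the egg coat gene zp2.1 had counts of 1024, 3, 0 and 1. Every comparison with the control rests on that library, and the part of this RNA in the values below was not tested. The comparisons between doses further on do not use its counts, but it entered the filter and the scaling. The genes behind their shares include some that passed the filter only through the control, such as zp2.1.

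Per unit of transcript length, as the authors' RPKM, egr1 was the highest of the 10 in every library and npas4a came next. The control had 125.4 RPKM of egr1, 74.9 of npas4a, 33.9 of fosab, 31.9 of ier2b, 25.9 of junba, 20.3 of ier2a, 10.5 of egr2a, 7.13 of egr3, 4.51 of nr4a1 and 1.77 RPKM of fosb. Counting intervals of fosab and ier2b overlapped there, as did those of ier2b and junba, so the order of these neighbours is not resolved. fosb was the lowest throughout. nr4a1 ranked below egr3 in the control and at 0.01 mg/L and above it at the higher doses, with overlapping intervals in all exposed libraries. Together egr1 and npas4a held 79.8%, 76.7%, 77.5% and 77.1% of the counts of the 10 genes, so a sum over the 10 is mostly a sum of this pair.

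**Figure D1:**
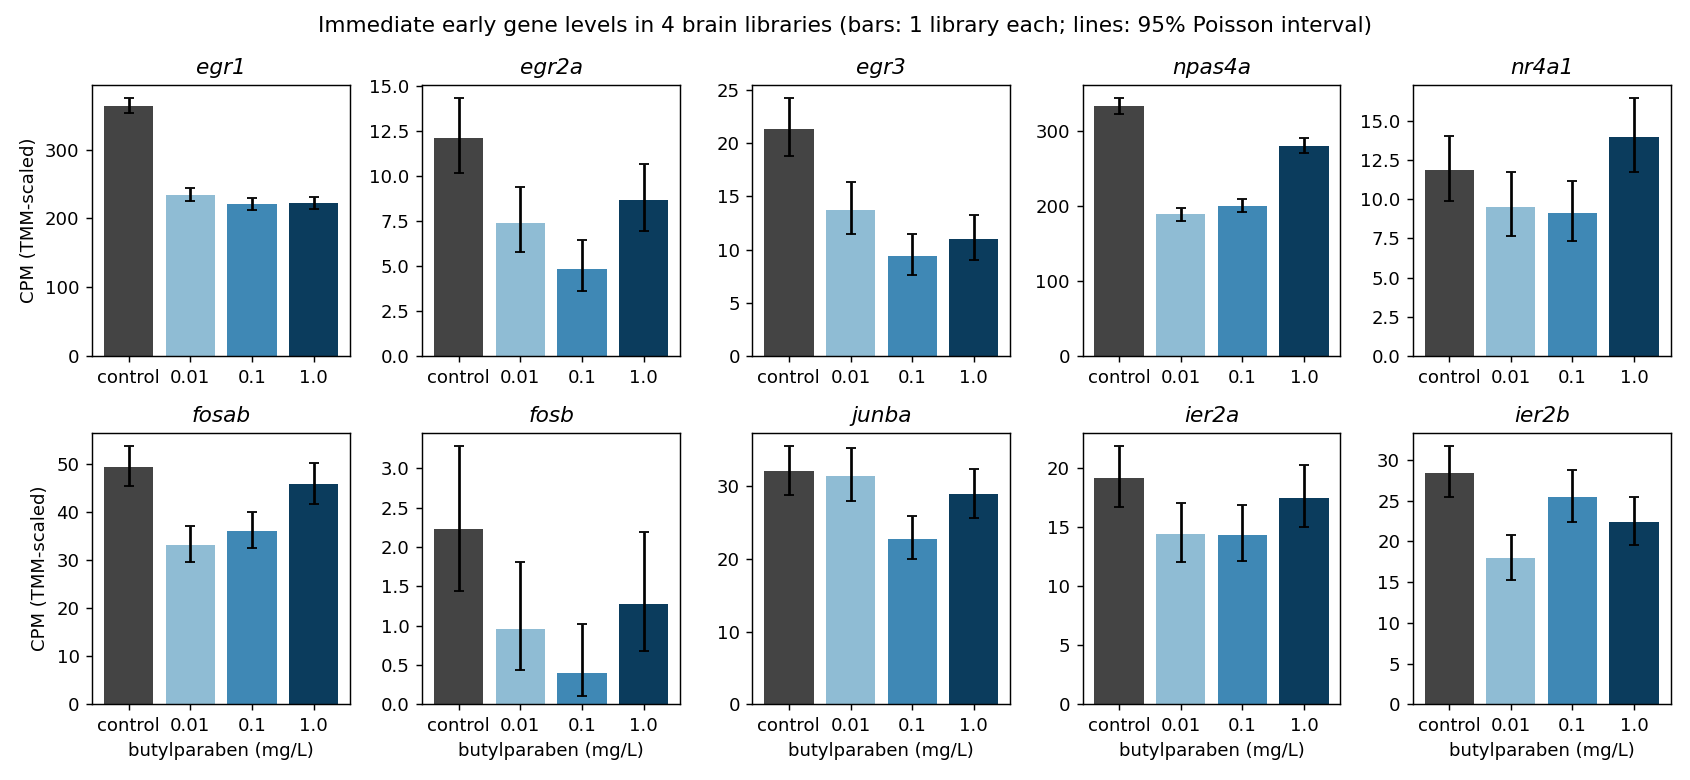
Level in CPM (vertical axis from 0, TMM-scaled) of each immediate early gene in the control and at 0.01, 0.1 and 1.0 mg/L butylparaben; each bar is 1 library and each line its 95% Poisson interval. The control bar is the highest for every gene but nr4a1, which peaks at 1.0 mg/L (13.96 CPM).

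The EGR genes code for zinc-finger transcription factors. egr1, needed in rodents for lasting memory, gave 4083, 2217, 2228 and 2260 counts, or 364, 235, 221 and 222 CPM. The control was the high library and the exposed ones lay close together. egr1 was 1.55-fold lower than the control at 0.01 mg/L (interval 1.47 to 1.63), 1.65-fold at 0.1 mg/L (1.56 to 1.73) and 1.64-fold at 1.0 mg/L (1.55 to 1.72).

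egr3, a close relative that activity also induces in the mammalian brain, gave 240, 130, 95 and 112 counts, or 21.4, 13.8, 9.42 and 11.01 CPM. Here too the control was high, by 1.55-fold (1.25 to 1.94), 2.27-fold (1.78 to 2.91) and 1.94-fold (1.54 to 2.45). egr2a belongs to the branch best known from hindbrain segments and myelinating glia, and gave 136, 70, 49 and 88 counts, or 12.1, 7.41, 4.86 and 8.65 CPM. Its lowest library was 0.1 mg/L, 2.49-fold below the control (1.79 to 3.53), while the gap was 1.63-fold at 0.01 mg/L (1.22 to 2.21) and 1.4-fold at 1.0 mg/L (1.06 to 1.85). For egr1, egr2a and egr3 alike, no interval held a ratio of 1 at any dose.

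npas4a codes for a transcription factor that answers to calcium entry and, in mice, adjusts inhibitory synapses. It gave 3749, 1788, 2023 and 2857 counts, or 334, 189, 201 and 281 CPM. The library at 1.0 mg/L lay between the control and the lower doses. npas4a was 1.76-fold lower than the control at 0.01 mg/L (1.67 to 1.87), 1.66-fold at 0.1 mg/L (1.58 to 1.76) and 1.19-fold at 1.0 mg/L (1.13 to 1.25).

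Fos and Jun proteins pair to form the AP-1 factor. fosab, a zebrafish c-fos, gave 555, 313, 364 and 465 counts, or 49.4, 33.1, 36.1 and 45.7 CPM. It resembled npas4a in that the highest dose stood nearest to the control: the gap was 1.49-fold (1.297 to 1.72), 1.37-fold (1.198 to 1.57) and 1.08-fold, the last with an interval that held 1 (0.954 to 1.23). On the other strand fosab lies within the span of si:ch211-153j24.3, which had 11, 1, 0 and 5 counts, and across from the antisense gene AL929435.1, which had 0 counts everywhere.

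fosb, whose mammalian form includes the long-lived delta-FosB, was the most thinly covered of the 10, at 25, 9, 4 and 13 counts. By library totals it had 2.25, 0.887, 0.404 and 1.33 CPM, so it passed the mean of 1 CPM only through the control. The control was high again, by 2.34-fold (1.06 to 5.69), 5.61-fold (1.94 to 22.2) and 1.74-fold (0.858 to 3.71). junba, a Jun partner, gave 360, 297, 230 and 294 counts, or 32.1, 31.4, 22.8 and 28.9 CPM. Its library at 0.1 mg/L was the low one, at 1.41-fold below the control (1.19 to 1.67), and its other intervals held 1.

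The ier2 genes code for nuclear proteins induced along with Fos genes. ier2a gave 215, 136, 145 and 178 counts, or 19.2, 14.4, 14.4 and 17.5 CPM, and ier2b 319, 169, 256 and 227 counts, or 28.4, 17.9, 25.4 and 22.3 CPM. ier2a was as low at 0.1 as at 0.01 mg/L (1.33-fold below the control at each, 1.07 to 1.66), while ier2b was higher at 0.1 than at 0.01 mg/L. Their intervals against the control overlapped at 0.1 mg/L, and a difference between the pair was not tested. ier2b was 1.59-fold lower at 0.01 mg/L (1.31 to 1.93), 1.12-fold at 0.1 mg/L with an interval holding 1 (0.946 to 1.32), and 1.27-fold at 1.0 mg/L (1.07 to 1.52).

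nr4a1 codes for an orphan nuclear receptor, Nur77 in mammals. It gave 133, 90, 92 and 142 counts, or 11.8, 9.53, 9.12 and 13.96 CPM. It alone of the 10 had its highest value in an exposed library, 1.0 mg/L, and each of its intervals against the control held 1. The control was the highest library for the other 9 genes, as it was for 27.6% of all genes. Of the 9, fosb passed the filter only through its high control, as did some genes behind the 27.6%, such as zp2.1.

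**Figure D2:**
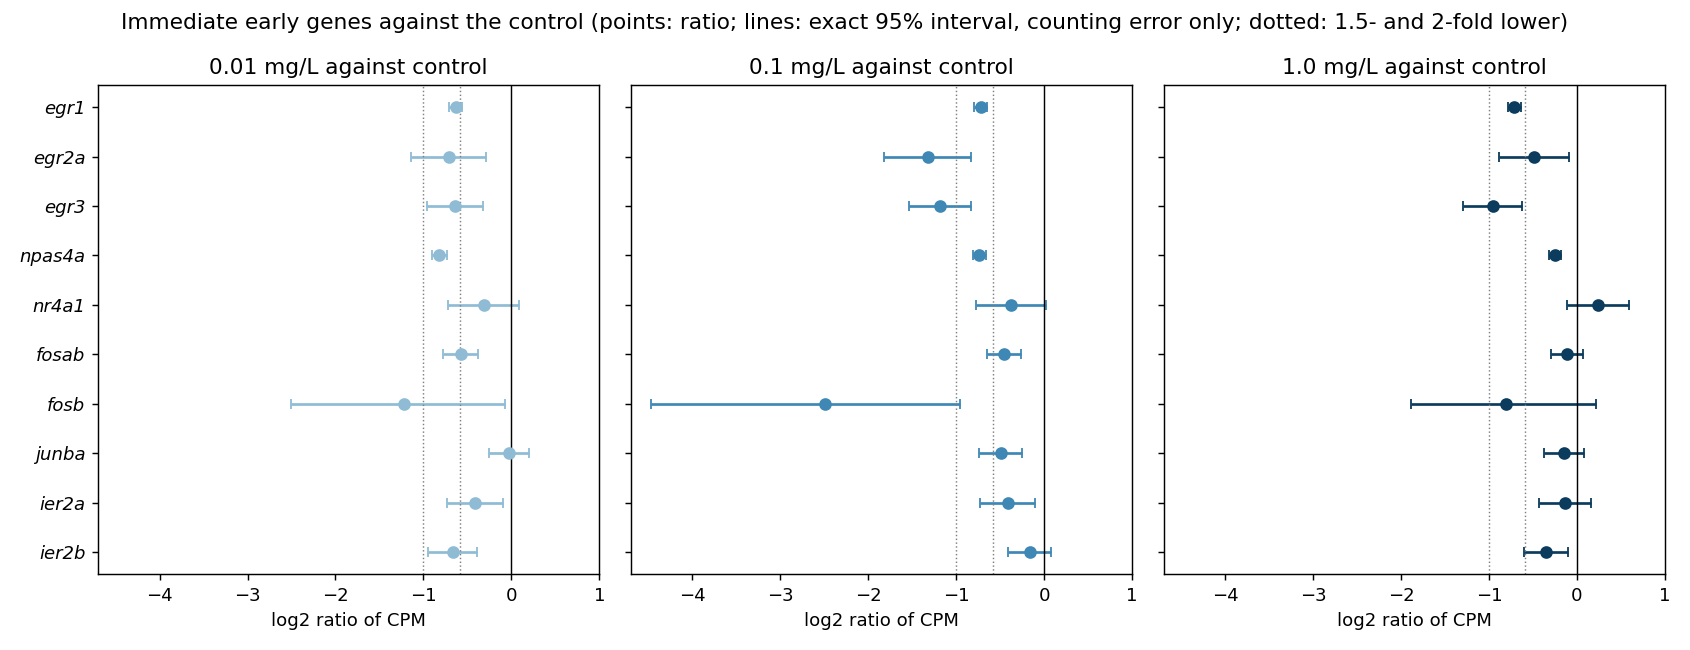
Log2 ratio of CPM, exposed library to control (horizontal axis), for each immediate early gene at each dose; points are ratios, lines exact 95% intervals of counting error, and dotted lines mark 1.5-fold and 2-fold lower. At 0.01 and 0.1 mg/L 8 of 10 intervals lie below 0, at 1.0 mg/L 5 of 10, and fosb has the widest. Both counts of 8 include fosb, which passed the filter only through its control.

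Taken as a group, the 10 genes had a median log2 ratio of (CPM + 0.5) to the control of -0.62, -0.60 and -0.30, where all 16522 genes had medians of -0.01, 0.00 and 0.00. At 0.01 mg/L 6 of the 10 were at least 1.5-fold lower with an interval excluding 1 (egr1, egr2a, egr3, npas4a, fosb and ier2b), against 6.14% of all genes. At 0.1 mg/L 5 were (the same without ier2b), against 8.01%, and at 1.0 mg/L 2 were (egr1 and egr3), against 7.24%. The fosb calls at 0.01 and 0.1 mg/L are not separate from the filter, which fosb passed only through its high control. No gene of the 10 was at least 1.5-fold higher, as 5.45%, 6.64% and 7.67% of all genes were. The 3 comparisons share their control library. In whole tissue, fewer active cells and less message in each cell cannot be told apart.

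The line of 1.5-fold runs close to several genes at 0.01 mg/L, with fosab just outside it (1.49-fold) and egr1 and egr3 just inside. Past 2-fold lower were fosb at 0.01 mg/L (all genes: 3.2%), fosb, egr2a and egr3 at 0.1 mg/L (4.1%) and none at 1.0 mg/L (3.57%). Here too the fosb calls depend on a filter that fosb passed only through the control. Intervals below 1, of any size of change, belonged to 8, 8 and 5 of the 10 genes, against 15.3%, 16.8% and 18.7% of all genes. Both counts of 8 include fosb, with the same limit. Without fosb, the counts were 7, 7 and 5 of 9 genes.

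Counting error is smaller in well-covered genes. Of the 10 genes 9 averaged at least 5 CPM, all but fosb, and 5, 4 and 2 of those were at least 1.5-fold lower, against 3.93%, 5.23% and 5.15% of the 11258 genes at that level. Among the 5 that reached 20 CPM (egr1, npas4a, fosab, junba and ier2b), 3, 2 and 1 were, against 1.59%, 1.66% and 3.3% of 6212 genes.

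In the authors' deposited table fosb, egr2a and egr3 are marked lower at 0.1 mg/L, with log2 fold changes of -2.49, -1.32 and -1.18. That mark stands for an uncorrected p-value under 0.05 with a change of at least 2-fold, and in the authors' deposited table it is given to 2.28%, 2.52% and 2.29% of all genes as lower. None of the 10 is marked at 0.01 or 1.0 mg/L in the authors' deposited table, where the smallest q-value of the 10 is 0.103, for fosb at 0.1 mg/L.

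A ratio to neuronal RNA within the same library needs no scaling between libraries. For every 1000 counts of the 31 pan-neuronal genes, the 10 immediate early genes held 60.1, 36.9, 36.1 and 48.3 counts. The control was high by this measure too, and 1.0 mg/L lay in between. The pan-neuronal genes themselves had medians of 0.01, -0.02 and -0.11 on the log2 scale, and 1 of 31, namely ncam1a at 0.1 mg/L, passed 1.5-fold lower.

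Among the exposed libraries, and so without the control's counts, 1.0 mg/L held more of several of these messages than 0.1 mg/L. Intervals lay above 1 for npas4a, fosab, junba, egr2a and nr4a1 (5 of 10; all genes 12.5%) and below 1 for none (all genes 16.5%). npas4a was 1.4-fold higher (1.32 to 1.48), and fosab (1.102 to 1.46) and junba (1.06 to 1.51) were 1.27-fold higher each. egr2a, at 1.78-fold (1.24 to 2.58), and nr4a1, at 1.53-fold (1.17 to 2.01), passed 1.5-fold, as 5.99% of all genes did, and 4.09% were that much lower. egr1 differed little, with a ratio of 1.01 (0.948 to 1.07).

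Against 0.01 mg/L, the library at 1.0 mg/L had 4 of the 10 with intervals above 1 (npas4a, fosab, ier2b and nr4a1; all genes 14.9%) and none below (14.7%). npas4a was 1.48-fold higher (1.399 to 1.58) and nr4a1 1.47-fold (1.12 to 1.93). None of the 10 passed 1.5-fold in either direction (all genes 5.11% lower, 5.9% higher), but 3 did so upward when libraries were scaled by their totals.

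Between the lower doses, egr1, egr2a, egr3 and junba had intervals below 1 at 0.1 against 0.01 mg/L (4 of 10; all genes 11.8%), and ier2b had one above (16.3%). egr2a alone passed 1.5-fold, at 1.52-fold lower (all genes 5.37%), and none was that much higher (4.76%). The median of the 10 was -0.07 there, and it turned positive with library totals, TPM or RPKM.

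The mix of messages differed as well as their level. Counts of npas4a for each count of egr1, a ratio within a library, were 0.918 (0.878 to 0.960), 0.806 (0.757 to 0.859), 0.908 (0.855 to 0.965) and 1.26 (1.196 to 1.34). At 1.0 mg/L npas4a thus had more counts than egr1, though per unit of length egr1 stayed higher (78.5 against 64.7 RPKM). The count ratio was 1.38 times the control's (1.28 to 1.48). nr4a1 to egr1 at that dose was 1.93 times the control's (1.503 to 2.48), fosab 1.51 times (1.32 to 1.73), ier2a 1.496 times (1.21 to 1.85) and junba 1.48 times (1.25 to 1.74). All of these divide by the same egr1 count, itself 1.64-fold below the control at 1.0 mg/L, so they are not independent of each other.

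egr3 to egr1 was 0.998 times the control's at 0.01 mg/L, 0.725 times at 0.1 mg/L (0.563 to 0.929) and 0.843 times at 1.0 mg/L, where the interval held 1 (0.664 to 1.07). egr2a to egr1 was lower at 0.1 mg/L (0.660 times, 0.464 to 0.926). At 1.0 mg/L egr1 and egr3 were still more than 1.5-fold below the control. egr2a (1.4-fold), ier2b (1.27-fold) and npas4a (1.19-fold) were below it by less, with intervals excluding 1. For fosab, ier2a, junba, nr4a1 and the thinly covered fosb the interval held 1.

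**Figure D3:**
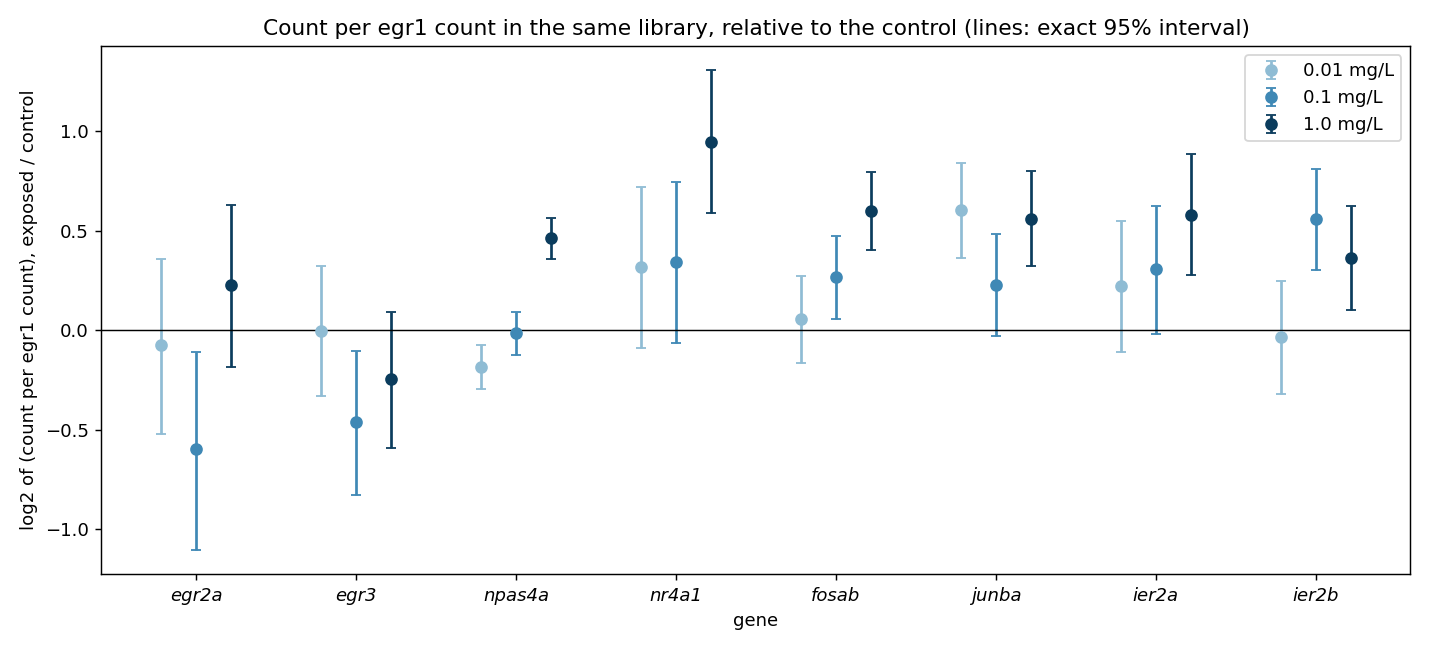
Log2 of the count per egr1 count in an exposed library over that in the control (vertical axis) for 8 immediate early genes at 3 doses; points are ratios and lines exact 95% intervals of counting error, and fosb is left out for its low counts. At 1.0 mg/L npas4a, nr4a1, fosab, junba, ier2a and ier2b lie above 0, while the intervals of egr2a (point above 0) and egr3 (point below 0) cross it.

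Other genes of the activity response lay nearer to the control in the median. Of 42 further activity-induced transcription factors 37 passed the filter, with medians of -0.19, -0.11 and -0.21. Of these 6, 4 and 8 were at least 1.5-fold lower and 1, 0 and 1 higher. For this and the lists below, the shares of all genes were 6.14%, 8.01% and 7.24% lower and 5.45%, 6.64% and 7.67% higher. The most abundant were bhlhe40, a repressor tied to the clock, with 345, 296, 285 and 193 CPM, and the light-induced clock gene per2, with 226, 216, 253 and 202 CPM. fosaa, another fos copy with 34, 11, 16 and 14 counts, and crema, of the CREB family, were lower by that rule at every dose. Others went the other way: jun had 101, 111, 119 and 128 CPM and klf11b 18.3, 25.3, 26.8 and 25.0 CPM. Both had intervals above the control at every dose, by less than 1.5-fold. Of the EGR family, egr4 had 108, 79.9, 100 and 137 CPM. Its interval lay below the control at 0.01 mg/L, held 1 at 0.1 mg/L and lay above the control at 1.0 mg/L (ratio 1.26, 1.17 to 1.36). egr2b had 6.32, 7.52, 6.35 and 6.88 CPM, and its intervals held 1 at every dose. fosaa, crema, jun, klf11b, egr4 and egr2b are named after their values were seen.

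Of 51 effectors and late-response genes 43 passed the filter, with medians of -0.02, -0.06 and -0.09; 1, 3 and 2 were at least 1.5-fold lower and 1, 3 and 0 higher. inhbab, a subunit of the growth factor activin, was lower at every dose, with 7.93, 4.87, 5.16 and 3.93 CPM. Of 24 feedback inhibitors of ERK and EGR signalling 22 passed, with medians of -0.16, -0.25 and -0.13; 1, 3 and 4 were lower and none higher. nab2, a corepressor that binds EGR proteins, gave 115, 48, 57 and 50 counts, or 10.2, 5.08, 5.65 and 4.92 CPM, so that its control was the high library, as for egr1.

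Of 63 kinases and transcription factors that act upstream 57 passed the filter, with medians of -0.03, -0.12 and 0.01; 0, 8 and 3 were at least 1.5-fold lower and none higher. The most abundant were the calcium-dependent kinase gene camk2b1, with 713, 683, 677 and 607 CPM, and the calcineurin gene ppp3cb, with 387, 380, 356 and 331 CPM. Both were below the control at all doses by less than the 1.5-fold line.

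**Figure D4:**
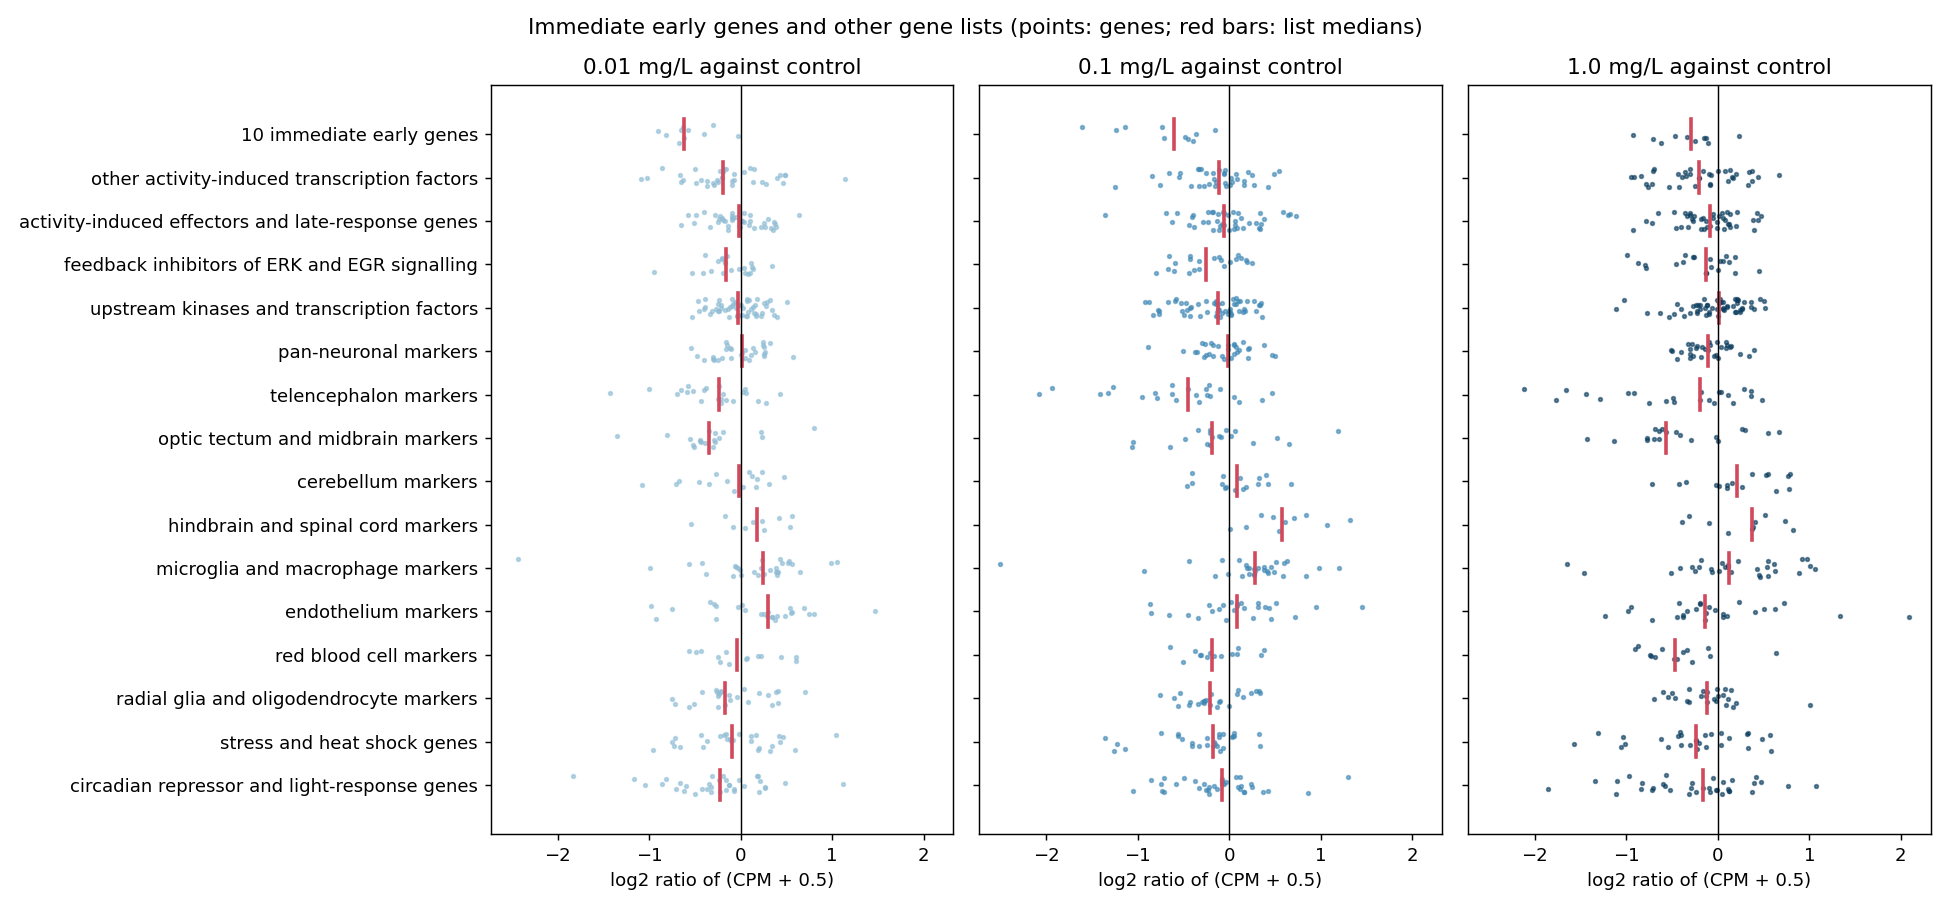
Log2 ratio of (CPM + 0.5), exposed library to control (horizontal axis), for the 10 immediate early genes and 15 other gene lists; points are genes past the filter and red bars list medians. Of the lists drawn, the immediate early genes have the lowest median at 0.01 mg/L (-0.62) and 0.1 mg/L (-0.60). At 1.0 mg/L the tectum and midbrain list (-0.57) and the red blood cell list (-0.46) lie below their -0.30. The egg coat and oocyte list is not drawn. All lists were chosen with earlier results of these data known, so this order is no separate result.

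Markers of brain regions moved in the same libraries, and their part in the values of the immediate early genes was not tested. Of 23 measured telencephalon markers 4, 11 and 8 were at least 1.5-fold lower and none higher, with medians of -0.23, -0.45 and -0.20. The lower counts include rorb (27, 9, 6 and 7 counts) at every dose and lhx8a (33, 17, 4 and 6 counts) at 0.1 and 1.0 mg/L. Both genes passed the filter only through their high control, so these calls are not separate from it. All listed telencephalon genes summed to 897, 867, 1018 and 1053 CPM, of which zic2a held 533, 550, 739 and 748 CPM, and without zic2a to 364, 318, 279 and 305 CPM, lower than the control at every dose. foxg1a, a defining forebrain factor, gave 115, 58, 40 and 20 counts, or 10.2, 6.14, 3.97 and 1.97 CPM. Other genes of the list ran differently: dlx2a, a factor of subpallial neurons, had 11.3, 8.26, 7.14 and 11.6 CPM, so that 1.0 mg/L stood nearest to the control, as for npas4a and fosab. rorb, lhx8a, zic2a and dlx2a are named after their values were seen.

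The 19 measured tectum and midbrain genes had medians of -0.35, -0.19 and -0.57 and sums of 838, 655, 738 and 571 CPM; 2, 3 and 8 were lower by 1.5-fold and 1, 2 and 1 higher. tal2 of that list had 7.75, 4.23, 4.76 and 4.33 CPM. The 16 cerebellum markers past the filter had medians of -0.02, 0.09 and 0.21. Of them 3, 0 and 1 were at least 1.5-fold lower and 0, 1 and 4 higher. All listed cerebellum genes summed to 2978, 3081, 3466 and 4247 CPM, with the granule cell gene zic1 at 835, 984, 1122 and 1441 CPM. The 10 hindbrain and spinal cord markers past the filter had medians of 0.18, 0.58 and 0.37. None of them was at least 1.5-fold lower, and 0, 4 and 1 were that much higher. All listed genes of these regions summed to 141, 193, 235 and 183 CPM. Of this, mafba, of posterior hindbrain segments, held 108, 160, 177 and 141 CPM. Without mafba the hindbrain sum was 33.1, 33.9, 58.9 and 42.4 CPM, and without zic1 the cerebellum sum was 2143, 2097, 2344 and 2806 CPM. Either way the hindbrain sum was highest at 0.1 mg/L and the cerebellum sum at 1.0 mg/L.

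Stress and clock genes, which are known to answer to handling, light and time of day, differed too, and their part was not tested. Of 28 measured stress and heat shock genes 4, 5 and 6 were at least 1.5-fold lower and 1, 0 and 1 higher, with medians of -0.10, -0.17 and -0.24. All listed stress genes summed to 3813, 3707, 3224 and 3235 CPM. hsp70l, an inducible chaperone, had 14.9, 9.21, 6.05 and 6.88 CPM. Of 35 clock and light-response genes 9, 5 and 8 were lower and 1, 2 and 2 higher, with medians of -0.22, -0.08 and -0.16 and sums of 3363, 2957, 3218 and 2956 CPM.

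The clock repressor gene ciarta had 47.8, 13.02, 28.5 and 12.9 CPM, and dbpa, a clock output factor, 20.5, 12.4, 11.1 and 7.77 CPM. Some clock genes, among them per2 and bhlhe40, also stand in the list of activity-induced factors. Hour of sampling and group cannot be told apart here.

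Markers of other cells took several directions, and their part was not tested either. The 30 measured microglia and macrophage genes had medians of 0.25, 0.28 and 0.13. Of them 2 were lower at each dose and 3, 4 and 7 higher. All listed genes of these cells summed to 829, 969, 1011 and 891 CPM. lcp1, an actin-bundling protein of leukocytes, had 13.8, 29.2, 25.2 and 26.0 CPM. The 26 endothelial genes past the filter had medians of 0.30, 0.09 and -0.14, and the 14 red blood cell genes -0.04, -0.19 and -0.46. Sums over all listed genes were 289 to 364 CPM for endothelium and 506 to 731 CPM for red blood cells. The 25 genes of radial glia and oligodendrocytes had medians of -0.17, -0.21 and -0.11 with sums of 14589 to 19581 CPM, most of it the myelin gene mbpa (9045, 14707, 11458 and 10364 CPM). Without mbpa the sum was 5544, 4874, 4916 and 4949 CPM, with the control high rather than low.

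Among 6207 other genes that averaged at least 20 CPM, the profiles nearest to the median profile of the 10 were those of smu1b, nkd1, glula, sez6a, epb41a and cacna1ba. Likeness was the root mean square difference of the 3 log2 ratios to the control over the 4 libraries, 0.043 for smu1b and 0.071 to 0.082 for the others. glula, the glutamine synthetase of glia, had 819, 576, 555 and 660 CPM, and cacna1ba, an N-type calcium channel subunit, 25.9, 18.2, 16.6 and 20.2 CPM. These genes were picked for their likeness, so that they share the high control, low 0.01 and 0.1 mg/L and intermediate 1.0 mg/L is no separate result. Of the 6207 genes 11 lay within 0.1 of the median profile.

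Coordinates in the authors' table, on the GRCz11 build, place egr1 (ENSDARG00000037421) at 21332522 to 21336385 and npas4a (ENSDARG00000055752) at 30636955 to 30642819, both on the minus strand of chromosome 14. egr3 (ENSDARG00000089156) is on chromosome 8 from 50727220 to 50733508, fosab (ENSDARG00000031683) on chromosome 20 from 46552311 to 46554440, and nr4a1 (ENSDARG00000000796) on chromosome 23 from 32149269 to 32194397. egr2a is on chromosome 17, fosb on 18, ier2a on 3, ier2b on 11 and junba on 1. All 10 are annotated as protein coding, and fosab is the one that overlaps another annotated gene.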

How the data were processed

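Libraries were made with a stranded mRNA kit for 151 bp paired ends, per the labels' protocols. The submitters' processing notes list cutadapt (2.8), STAR (2.7.1a), RSEM (1.3.1) and GRCz11; strand use in counting is not stated there. The authors deposited a read count, an RPKM and a TPM for each gene and library, per the file headers. Since RSEM is named, the deposited whole numbers were taken to be its expected counts made whole, which no source used here states. Also deposited are the authors' own log2 fold change, with p-value and q-value, of each dose; how they were tested is not stated.

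Counts were scaled by TMM (edgeR 4.0.16, R 4.3.3) over all counted genes, with factors of 1.01, 0.931, 1.02 and 1.04 from control to 1.0 mg/L. A mean of 1 CPM was the filter. Log2 ratios use log2(CPM + 0.5), which understates low genes; folds are plain CPM ratios. A call needed 1.5-fold or 2-fold and an exact interval excluding 1; the interval code was tested on simulated data. No test between conditions was made. DESeq2 1.42.0 gave alternative size factors; intervals and figures came from scipy 1.17.1 and matplotlib 3.10.9 in Python 3.11.15.

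The members and 16 other lists were chosen with earlier results of these data known. Named list genes had a mean of at least 5 CPM and lay 1.5-fold from the control in 1 direction at all doses. Where a list had none, its 2 most abundant were named. Not all of the genes so named are printed. egr4, egr2b, fosaa, crema, jun, klf11b, ncam1a, rorb, lhx8a, zic2a and dlx2a fall outside this rule and were named after their values were seen. The 6 nearest profiles were also named. Promoters and sequences are not analysed here.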

Additional observations from a re-analysis of the deposited data

How the results depend on the processing

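The alternatives were DESeq2 size factors, library totals, TMM without mitochondrial genes, the pan-neuronal median set to 0, TPM, RPKM, pseudocounts of 0.1 and 2, a mean of at least 5 CPM, no filter and, added after seeing the data, TMM from genes of at least 1 CPM and folds of 1.4 and 1.6. Over them the median of the 10 genes against the control ranged from -0.79 to -0.56 at 0.01 mg/L, from -0.61 to -0.51 at 0.1 mg/L and from -0.30 to -0.18 at 1.0 mg/L, and every gene kept its sign against the control at each dose. Of 327 values of single genes 12 moved beyond their counting interval. The median of all genes at 0.01 mg/L was -0.12 with library totals, -0.19 in TPM and -0.13 in RPKM, against -0.01 as reported, and at 1.0 mg/L it was 0.11 with the pan-neuronal setting, against 0.00. TPM and RPKM calls are by fold alone.

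At 0.1 against 0.01 mg/L the lower count of 1 became 0 under library totals, the pan-neuronal setting and 1.6-fold and 2 at 1.4-fold, and the higher count of 0 became 1 under library totals, TPM, RPKM and 1.4-fold. The median there ranged from -0.10 to 0.18. At 1.0 against 0.01 mg/L the higher count of 0 became 3 under library totals, the pan-neuronal setting and RPKM, 5 in TPM and 2 at 1.4-fold. At 1.6-fold the count at 0.01 mg/L against the control went from 6 to 3, and the higher count at 1.0 against 0.1 mg/L from 2 to 1. No paired analysis was possible because each group has 1 library. Depth limits fosb most.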
